A study of Mus musculus with 20 samples.

Results

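The genes described here had few or no reads in neural precursors and young neurons of the mouse forebrain. In tissue dissected as dorsal medium spiny neurons they had many, though for some members the source of the reads is uncertain. The members numbered 26 of 34620 gene symbols. The medium spiny neuron is the projection neuron of the striatum, and the labels write it as medial spiny neuron. Each member had at least 10 CPM (a read count divided by the summed gene counts of its library and scaled to 1000000) in both dorsal medium spiny neuron libraries and less than 0.5 CPM in each of the other 4 RNA libraries. Symbols starting with Gm or mmu-mir were left out, as were Pvalb, Mobp, Mog and Mag. The measured levels thus chose the members, and those levels, the folds made from them and the contrast between these libraries are given as a description with no test.

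The 6 polyA RNA libraries of the series came from brain that was frozen, cut and microdissected, and all are labelled male C57BL/6 wild type. There were 2 libraries of dorsal medium spiny neurons (dMSN), 1 of young medium spiny neurons (yMSN), 1 of young pyramidal neurons from hippocampal CA fields (yCA), 1 of striatal precursors (SP) and 1 of hippocampal precursors (HP). No age is given for any of them, and nothing says whether the 2 dMSN libraries are separate animals, so the spread between them may be technical. The other 4 groups have no replicates. The study compared DNA methylation and RNA between stages and regions, and its bisulfite samples were not analysed here.

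Dissection takes every cell in the piece, so fewer cells of a type and less RNA per cell cannot be told apart in these values. Oligodendrocytes wrap axons in myelin, and in mouse forebrain most of them mature after birth. Astrocytes also mature late, taking up glutamate and potassium and supplying neurons with metabolites. Oxytocin and hypocretin are peptides made by hypothalamic neurons, and immediate early genes such as Egr4 are transcribed within minutes of neuronal stimulation.

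Some libraries stood apart from their labels or from brain. Gene counts were 152347673 in dMSN 1 and 145713678 in dMSN 2, against 31282185 to 36969136 in the other 4, where 0.5 CPM amounts to 15.6 to 18.5 counts. A count of 0 allows up to 0.0197 CPM in dMSN 1 and 0.0959 CPM in HP, counting error only. Xist, the noncoding RNA of X inactivation, had 4 counts in dMSN 1 and 0 in dMSN 2, against 575 CPM in yMSN, 837 CPM in yCA, 1204 CPM in SP and 954 CPM in HP. Among Y-linked genes, Ddx3y had 20.7 and 25.7 CPM in the dMSN libraries, against 23.8 CPM in yMSN, 0 in yCA and SP and 8.70 CPM in HP. Acta1, skeletal muscle actin, stood at 22.3 and 22.6 CPM in the dMSN libraries, against 588 CPM in yMSN, 1604 CPM in yCA, 2.29 CPM in SP and 1.79 CPM in HP. Omp, a gene of the olfactory epithelium, had 50.4 CPM in yMSN. Its level was 1.00 and 0.316 CPM in the dMSN libraries, 0.311 CPM in yCA, 0.279 CPM in SP and 0.128 CPM in HP. Medium spiny neuron markers were present in the dMSN tissue, with Ppp1r1b (DARPP-32) at 2033 and 1966 CPM and Drd2, a dopamine receptor, at 150 and 123 CPM. Markers of other cells were there as well. Slc17a7, the glutamate transporter of cortical and hippocampal projection neurons, had 739 and 1182 CPM, and Ttr, the choroid plexus transthyretin, had 4314 and 3414 CPM. Ttr was not typical of its list. The median of the 16 listed ependyma and choroid plexus genes was 9.45 and 10.01 CPM in the dMSN libraries, against 18.6 CPM in yMSN.

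Most of what follows turns on 5 members, a pair from myelin and 3 neuronal ones with opposite behaviour between the dMSN libraries, and their promoters are printed for that reason. Each runs from 250 bases before to 50 bases after the gene's start in RefSeq's GRCm38.p6, on the gene's own strand. Opalin lies at chr19:41077064-41077363 (minus strand), Neu4 at chr1:94020243-94020542 (plus), Oxt at chr2:130575919-130576218 (plus), Hcrt at chr11:100762882-100763181 (minus) and Egr4 at chr6:85513540-85513839 (minus). Capitals mark matches, on either strand, to 6 short motifs. These are the box of letters TATAAA, the forms ACAAAG as well as ACAATG bound by Sox proteins, the E-boxes CAGCTG as well as CAGATG bound by bHLH proteins, and the letters TGACGT from the cAMP response element. No printed match overlaps another.
Opalin: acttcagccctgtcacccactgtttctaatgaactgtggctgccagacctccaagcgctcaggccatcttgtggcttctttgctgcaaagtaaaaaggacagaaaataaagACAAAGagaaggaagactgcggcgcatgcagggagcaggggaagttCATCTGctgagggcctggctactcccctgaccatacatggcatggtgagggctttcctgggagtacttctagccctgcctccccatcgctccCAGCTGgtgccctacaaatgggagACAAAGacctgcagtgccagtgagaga
Neu4: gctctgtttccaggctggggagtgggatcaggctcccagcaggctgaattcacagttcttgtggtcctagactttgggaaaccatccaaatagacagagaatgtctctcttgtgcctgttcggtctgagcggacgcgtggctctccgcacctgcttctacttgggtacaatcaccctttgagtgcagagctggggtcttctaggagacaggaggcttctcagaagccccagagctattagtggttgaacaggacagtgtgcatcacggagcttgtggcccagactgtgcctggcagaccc
Oxt: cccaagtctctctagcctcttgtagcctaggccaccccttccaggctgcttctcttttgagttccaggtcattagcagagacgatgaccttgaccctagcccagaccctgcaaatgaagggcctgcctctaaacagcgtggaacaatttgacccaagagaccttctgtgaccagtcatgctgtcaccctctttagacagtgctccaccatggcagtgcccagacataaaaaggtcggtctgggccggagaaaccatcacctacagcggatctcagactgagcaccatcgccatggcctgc
Hcrt: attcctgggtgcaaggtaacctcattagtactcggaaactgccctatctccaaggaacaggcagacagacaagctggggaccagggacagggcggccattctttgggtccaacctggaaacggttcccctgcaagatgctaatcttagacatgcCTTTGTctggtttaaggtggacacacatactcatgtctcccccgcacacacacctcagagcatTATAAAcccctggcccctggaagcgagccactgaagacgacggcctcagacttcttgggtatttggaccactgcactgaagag
Egr4: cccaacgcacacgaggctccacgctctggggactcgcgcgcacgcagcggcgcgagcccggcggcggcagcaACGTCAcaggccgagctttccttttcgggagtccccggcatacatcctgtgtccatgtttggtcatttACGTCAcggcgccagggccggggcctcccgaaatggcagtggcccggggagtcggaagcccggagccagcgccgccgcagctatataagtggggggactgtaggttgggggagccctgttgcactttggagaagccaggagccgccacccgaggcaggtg

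Opalin held ACAAAG 139 bases before its start and again at base 24 after it, with CAGATG on the other strand at 93 bases and CAGCTG at the start. ACAAAG is in 18.7%, CAGATG in 17.2% and CAGCTG in 16.3% of the 32851 promoters of the table. In Egr4, TGACGT lay on the other strand 178 and 110 bases before the start, and this motif is in 7.51% of all promoters. The Egr4 promoter held 30 CpG dinucleotides (observed over expected 0.876), against 4 in Opalin (0.181), 6 in Neu4 (0.263), 6 in Oxt (0.277) and 7 in Hcrt (0.330). The median over all promoters was 7 CpG, or 0.384. Hcrt had TATAAA 33 bases before the start, a motif in 13.6% of promoters, and ACAAAG on the other strand at 96 bases. ACAATG is in 12.6% of promoters, and none of the 6 motifs was found in the windows of Neu4 and Oxt. Only 14 of 26 members (53.8%) had a promoter in the table, below the 80% needed, so no statement on CpG content is made for the group.

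Of 34620 symbols, 9529 (27.5%) had at least 10 CPM in both dMSN libraries and 17386 (50.2%) had less than 0.5 CPM in each of yMSN, yCA, SP and HP. Both limits were met by 36 symbols, which is 0.104% of all and 0.378% of those at the dMSN level. Leaving out 10 of these by name gave the 26 members. None of the 4 genes named in the rule would have been a member: the highest level among the 4 other libraries was 0.508 CPM for Pvalb (in yCA), 1.28 CPM for Mobp (in HP), 6.83 CPM for Mog (in yCA) and 1.13 CPM for Mag (in yCA).

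Together the members took 0.130% of gene counts in dMSN 1 and 0.0987% in dMSN 2. Their summed level was 1304 CPM in dMSN 1 and 987 CPM in dMSN 2, against 4.33 CPM in yMSN, 3.16 CPM in yCA, 1.14 CPM in SP and 0.959 CPM in HP. All but Opalin had reads in at least 1 of the other 4 libraries, so the words "only in dMSN" describe a limit and not an absence. A count of 0 was found for 2 members in yMSN, 5 in yCA, 13 in SP and 13 in HP. The highest of the 4 other libraries was yMSN for 12 members, yCA for 9, SP for 3 and HP for 2. The mean of the young libraries exceeded that of the precursors for 21 of 26 members and was below it for 4. Among genes with a count and under 0.5 CPM in each of these 4 libraries, 5451 of 8883 (61.4%) were higher in the young libraries.

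**Figure D1:**
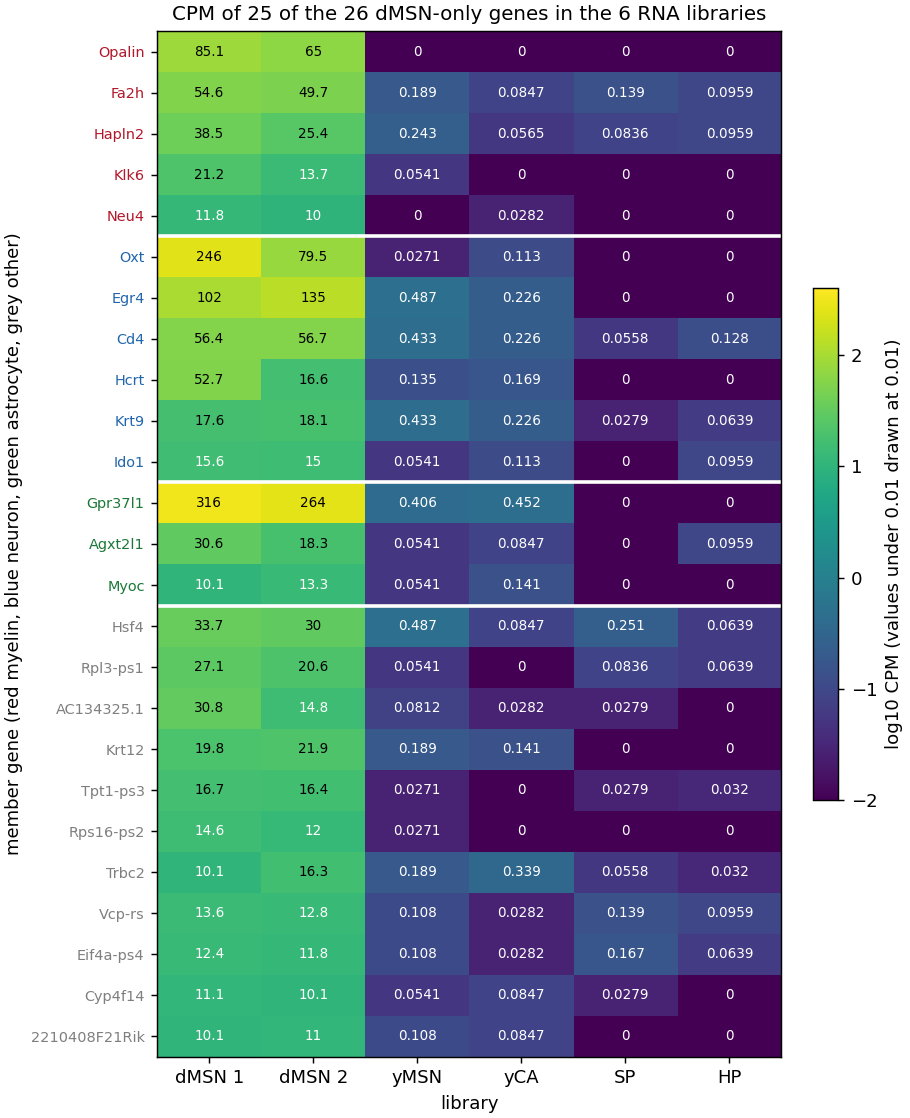
Level of 25 of the 26 members (rows, grouped by cell source and printed in CPM) in the 6 RNA libraries (columns), coloured by log10 CPM with values under 0.01 drawn at 0.01. Every dMSN cell is at or above 10.03 CPM and every other cell is at or below 0.487 CPM, as the rule demands.

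Myelin and oligodendrocyte genes made up 6 members, each taken from a written list of 69 such genes. Opalin, a sialylated membrane protein of the oligodendrocyte and its myelin, had 85.1 CPM in dMSN 1 and 65.0 CPM in dMSN 2 (75.0 ± 14.2 CPM, SD, n = 2). No read was assigned to it in yMSN, yCA, SP or HP. The dMSN level was at least 3500-fold higher than a floor of 3 counts over these 4 libraries together. Neu4, a sialidase, which removes sialic acid from glycans, had 11.8 and 10.03 CPM in the dMSN libraries. Among the other 4 libraries it had 1 count, in yCA (0.0282 CPM), which gives a ratio of 1527 with a 95% counting interval of 274 to 60320. Opalin thus had 12959 and 9467 reads in the dMSN libraries and none elsewhere, while Neu4 sits just inside the lower limit.

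Fa2h hydroxylates the fatty acids of myelin galactolipids. Its level was 54.6 CPM in dMSN 1 and 49.7 CPM in dMSN 2, against 0.189 CPM in yMSN, 0.0847 CPM in yCA, 0.139 CPM in SP and 0.0959 CPM in HP. Pooled over libraries the ratio was 405 (95% counting interval 256 to 683), and the values in the other 4 libraries rest on 3 to 7 counts each. Hapln2, a link protein of the hyaluronan matrix at nodes of Ranvier, had 38.5 and 25.4 CPM in the dMSN libraries, against 0.243 CPM in yMSN, 0.0565 CPM in yCA, 0.0836 CPM in SP and 0.0959 CPM in HP. Klk6, a secreted serine protease of oligodendrocytes, had 21.2 and 13.7 CPM in the dMSN libraries and 2 counts elsewhere, in yMSN (0.0541 CPM), a ratio of 1225 (339 to 10120).

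The myelin members were a small part of their list. Of the 69 listed genes, 56 had at least 10 CPM in both dMSN libraries, and 50 of these exceeded 0.5 CPM in at least 1 other library. Outside the members, 63 listed genes were tested in dMSN against yMSN by edgeR's quasi-likelihood test: 46 were higher in dMSN, 8 lower and 9 did not pass. All 10 lists tested in this way were chosen with earlier results of these data known, so their counts are a description. The spread behind the test comes from the dMSN pair alone. The SEs and p-values given here and below assume that the single yMSN library varies as that pair does. The 8 lower genes became 4 with DESeq2 or with lineage and stage as terms, and 3 in that model when dMSN 1 or dMSN 2 was left out. Over all 19192 genes tested, 32.1% were higher and 35.4% lower. The median log2 change was 2.86 for the 63 genes and -0.11 for all genes tested. That median of all genes moved to -0.27 with upper quartile scaling and to 0.02 when only yMSN and dMSN were fitted. Mobp, an abundant basic protein of compact myelin, rose by 11.35 in log2 units (SE 0.421). It had 530 and 434 CPM in the dMSN libraries and 0.271 CPM in yMSN. Mag, the adhesion molecule of inner myelin, rose by 9.21 (SE 0.367), and Gjb1, the connexin 32 of myelin, by 6.75 (SE 0.449). Mobp and Gjb1 met the rule's limits in dMSN and yMSN, and Mobp and Mag are named in the rule. Their changes are therefore a description with no test. Sgk2 had 3.60 and 4.04 CPM in the dMSN libraries and 1 count in yMSN. Plekhh1, Carns1, Lpar1 and Padi2 did not pass.

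Oligodendrocyte precursor genes were split in direction, near the shares of all genes tested. Of 11 listed genes that are not members, 4 were higher in dMSN than in yMSN, 4 were lower and 3 did not pass (median log2 change -0.33). When dMSN 1 or dMSN 2 was left out, with lineage and stage as terms, 3 were higher and 1 lower. Vcan, a matrix proteoglycan, fell by 4.59 and Pdgfra, the growth factor receptor of these precursors, fell by 2.09 on the log2 scale. C1ql1, a secreted C1q-like protein, rose by 4.05 and the transcription factor Olig1 rose by 3.29. Neu4 is on both the precursor and the myelin list.

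Astrocyte genes made up 3 members, Gpr37l1 by the list and the other pair by textbook knowledge. Gpr37l1, an orphan receptor of astrocytes, had the highest CPM of all members, not scaled by length, with 316 CPM in dMSN 1 and 264 CPM in dMSN 2, against 0.406 CPM in yMSN, 0.452 CPM in yCA and no count in SP or HP. Its ratio over the other 4 libraries was 1308 (95% counting interval 922 to 1925). Agxt2l1, now named Etnppl, breaks down phosphoethanolamine. It had 30.6 and 18.3 CPM in the dMSN libraries, against 0.0541 CPM in yMSN, 0.0847 CPM in yCA, none in SP and 0.0959 CPM in HP. Myoc, the secreted glycoprotein myocilin, had 10.1 and 13.3 CPM in the dMSN libraries, against 0.0541 CPM in yMSN, 0.141 CPM in yCA and no count in SP or HP. All 3 were without a read in SP.

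Of the other 46 astrocyte genes on the list, 40 were higher in dMSN than in yMSN, 2 were lower and 4 did not pass, with a median log2 change of 2.86. With lineage and stage as terms, 35 were higher and 0 lower. Ntsr2, a neurotensin receptor, missed membership through 0.621 CPM in yCA, and it rose by 10.49 in log2 units (SE 0.399). Itih3 rose by 8.07, Slc39a12, a zinc transporter, by 6.88 and Gfap, the astrocyte intermediate filament, by 6.87. Ntsr2 and Itih3 met the rule's limits in dMSN and yMSN, so their changes are a description with no test. Gja1, Sox9, Ppp1r3c and Slc14a1 did not pass. Microglia genes, of which none is a member (26 of all 34620 symbols are), were higher in dMSN for 16 of 18 (median log2 change 2.92). Endothelial and pericyte genes were higher for 5 of 19, with 12 lower (median log2 change -1.24). The 5 became 3 with lineage and stage as terms, and stayed at 3 when dMSN 1 or dMSN 2 was left out.

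**Figure D2:**
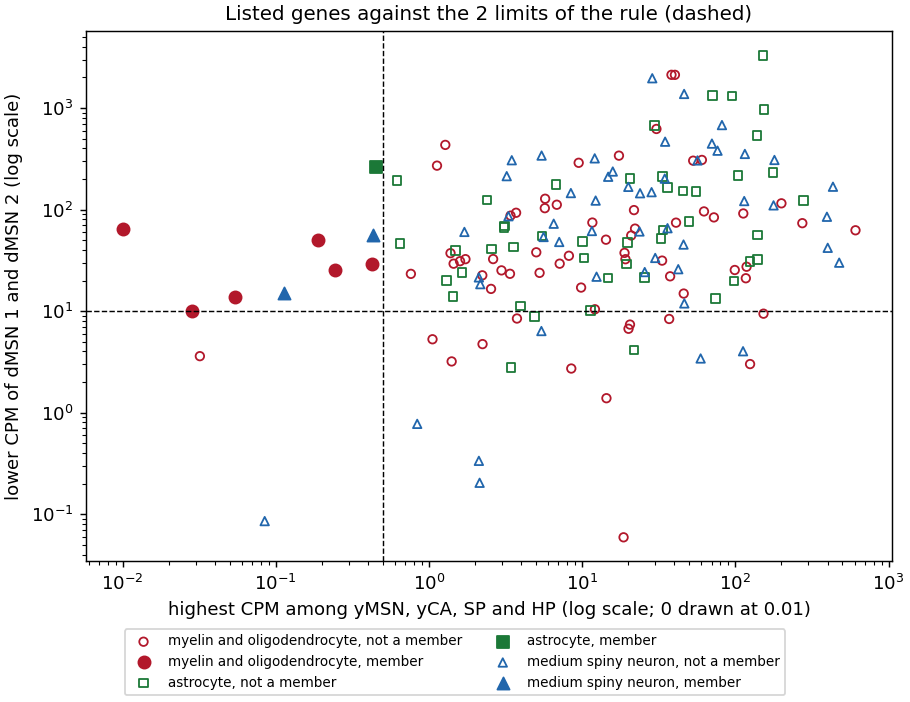
Each point is a gene from the myelin, astrocyte or medium spiny neuron list, placed by its highest CPM among yMSN, yCA, SP and HP (horizontal, log scale, 0 drawn at 0.01) and the lower of its 2 dMSN values (vertical, log scale), with dashed lines at 0.5 and 10 CPM. Filled symbols in the upper left are members; 50 of the 56 myelin genes above the horizontal line lie to the right of the vertical one.

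Neuronal members numbered 6, of which Cd4 and Ido1 come from the medium spiny neuron list and Krt9 from the pallial projection neuron list, while Oxt, Hcrt and Egr4 were assigned after their names were seen. Oxt, the oxytocin precursor, had 246 CPM in dMSN 1 and 79.5 CPM in dMSN 2, against 0.0271 CPM in yMSN, 0.113 CPM in yCA and no count in SP or HP. Hcrt, the precursor of the hypocretin (orexin) peptides, had 52.7 CPM in dMSN 1 and 16.6 CPM in dMSN 2, against 0.135 CPM in yMSN, 0.169 CPM in yCA and no count in SP or HP. Both peptide genes were about as unequal between the dMSN libraries as each other. Egr4, a zinc finger transcription factor of the early growth response family, had 102 CPM in dMSN 1 and 135 CPM in dMSN 2, against 0.487 CPM in yMSN, 0.226 CPM in yCA and no count in SP or HP.

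Cd4, the T cell co-receptor, was nearly equal in both dMSN libraries, with 56.4 and 56.7 CPM, against 0.433 CPM in yMSN, 0.226 CPM in yCA, 0.0558 CPM in SP and 0.128 CPM in HP. Ido1, which starts the breakdown of tryptophan to kynurenine, had 15.6 and 15 CPM in the dMSN libraries, against 0.0541 CPM in yMSN, 0.113 CPM in yCA, none in SP and 0.0959 CPM in HP. Krt9, known as a keratin of palm and sole skin, had 17.6 and 18.1 CPM in the dMSN libraries, against 0.433 CPM in yMSN, 0.226 CPM in yCA, 0.0279 CPM in SP and 0.0639 CPM in HP. These 3 members differed between the dMSN libraries by less than the members from myelin.

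The list around them moved widely. Of 49 medium spiny neuron genes tested outside the members, 37 were higher in dMSN than in yMSN, 8 were lower and 4 did not pass (median log2 change 3.22). The 8 lower genes became 3 when dMSN 1 or dMSN 2 was left out, with lineage and stage as terms. Rasd2 (Rhes), a GTPase of the striatum, rose by 7.47 in log2 units (SE 0.305, adjusted p = 2.44e-09). Ppp1r1b rose by 7.05, Kcnj4, an inward rectifier potassium channel, by 6.65 and Scn4b, a sodium channel beta subunit, by 6.56. Oprd1, Foxp1, Meis2 and Sp9 did not pass. Among pallial projection neuron genes 21 of 31 were higher and 4 lower, among interneuron genes 18 of 23 higher and 3 lower, and among synapse genes 54 of 61 higher and 1 lower. In the model with lineage and stage, 13 pallial genes were higher without dMSN 2, and 10 interneuron genes without dMSN 1. The 4 pallial genes lower became 2 with DESeq2 and 2 without dMSN 1. None of the synapse genes on the list is a member, beside 26 members among all 34620 symbols.

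T cell genes include another member besides Cd4. Trbc2, a constant segment of the T cell receptor beta chain, had 10.1 CPM in dMSN 1 and 16.3 CPM in dMSN 2, against 0.189 CPM in yMSN, 0.339 CPM in yCA, 0.0558 CPM in SP and 0.0320 CPM in HP. Another 11 genes of a T cell list, compiled with the data in view, summed to 9.64 and 6.23 CPM in the dMSN libraries, against 12.2 CPM in yMSN, 7.79 CPM in yCA, 8.84 CPM in SP and 14.9 CPM in HP. Receptor subunits were low: Cd3d had 0.00656 and 0.00686 CPM, Cd3e 0.171 and 0.0824 CPM and Cd3g 0.0263 and 0.0480 CPM in the dMSN libraries. Elsewhere they reached at most 0.279 CPM for Cd3d, 0.0847 CPM for Cd3e and 0.0541 CPM for Cd3g. Cd8a had 0.112 and 0.0137 CPM in the dMSN libraries, against at most 0.128 CPM elsewhere. Trac, the alpha chain constant segment, had 0.827 and 0.549 CPM, against at most 0.135 CPM elsewhere. Zap70 had 4.22 and 1.74 CPM in the dMSN libraries, against at most 1.46 CPM elsewhere. For Lck the values were 2.53 and 2.14 CPM, against up to 10.55 CPM elsewhere.

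The remaining 11 members have no clear cell source. Hsf4, a heat shock transcription factor known from the lens, had 33.7 and 30.0 CPM in the dMSN libraries, against 0.487 CPM in yMSN, 0.0847 CPM in yCA, 0.251 CPM in SP and 0.0639 CPM in HP. Krt12, known as the keratin of the cornea, had 19.8 and 21.9 CPM in the dMSN libraries, against 0.189 CPM in yMSN, 0.141 CPM in yCA and no count in SP or HP. Cyp4f14, a cytochrome P450 that hydroxylates fatty acids and leukotrienes, had 11.1 and 10.1 CPM in the dMSN libraries, with 0.0541 CPM in yMSN, 0.0847 CPM in yCA, 0.0279 CPM in SP and none in HP. The unnamed 2210408F21Rik and AC134325.1 had 10.1 and 10.96 CPM, and 30.8 and 14.8 CPM, in dMSN 1 and dMSN 2. Neither exceeded 0.108 CPM elsewhere.

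Most epidermal keratins had another pattern than the keratin members. Of 7 other keratins, also listed with the data in view, Krt5 had 0.0263 and 0 CPM in the dMSN libraries, against 147 CPM in yMSN and 81.8 CPM in yCA. Krt14, which neighbours Krt9 in the genome, had 0.322 and 0.0137 CPM in the dMSN libraries, against 63.4 CPM in yMSN and 36.9 CPM in yCA. Krt13 and Krt4 had no count in either dMSN library. The summed level of the 7 was 42.6 and 34.8 CPM in the dMSN libraries, nearly all from Krt10 and Krt1, against 408 CPM in yMSN, 275 CPM in yCA, 9.25 CPM in SP and 13.01 CPM in HP.

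Among these 11 members, 5 are copies of genes that every cell uses. A pseudogene name is carried by 4 of them (Rpl3-ps1, Tpt1-ps3, Rps16-ps2 and Eif4a-ps4), and Vcp-rs is named a related sequence. Their reads are uncertain, since a read of the parent could be placed on a near-identical copy. Rpl3-ps1, named for a ribosomal protein of the large subunit, had 27.1 and 20.6 CPM in the dMSN libraries and at most 0.0836 CPM elsewhere. Rpl3 itself had 744 and 627 CPM in the dMSN libraries, against 431 CPM in yMSN, 318 CPM in yCA, 517 CPM in SP and 566 CPM in HP. Its copy therefore stood at 3.65% and 3.29% of its parent in dMSN, and at no more than 0.0162% in the other 4 libraries.

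The remaining copies behaved alike in this respect. Rps16-ps2 stood at 4.90% and 4.58% of Rps16 in the dMSN libraries, and at no more than 0.0121% elsewhere. Vcp-rs stood at 3.72% and 3.65% of Vcp, an ATPase that extracts ubiquitinated proteins, and at no more than 0.0385% elsewhere. Eif4a-ps4 stood at 3.17% and 3.16% of Eif4a1, a translation initiation helicase, and at no more than 0.0215% elsewhere, and its symbol does not say which Eif4a gene it copies. Tpt1-ps3 stood at 2.19% and 2.37% of Tpt1, the translationally controlled tumour protein, and at no more than 0.00374% elsewhere. The parents differed far less. Their mean dMSN CPM over the mean of the other 4 libraries was 1.496-fold for Rpl3, 1.39-fold for Rps16 and 1.11-fold for Vcp. It was 0.580-fold for Eif4a1 and 0.839-fold for Tpt1.

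**Figure D3:**
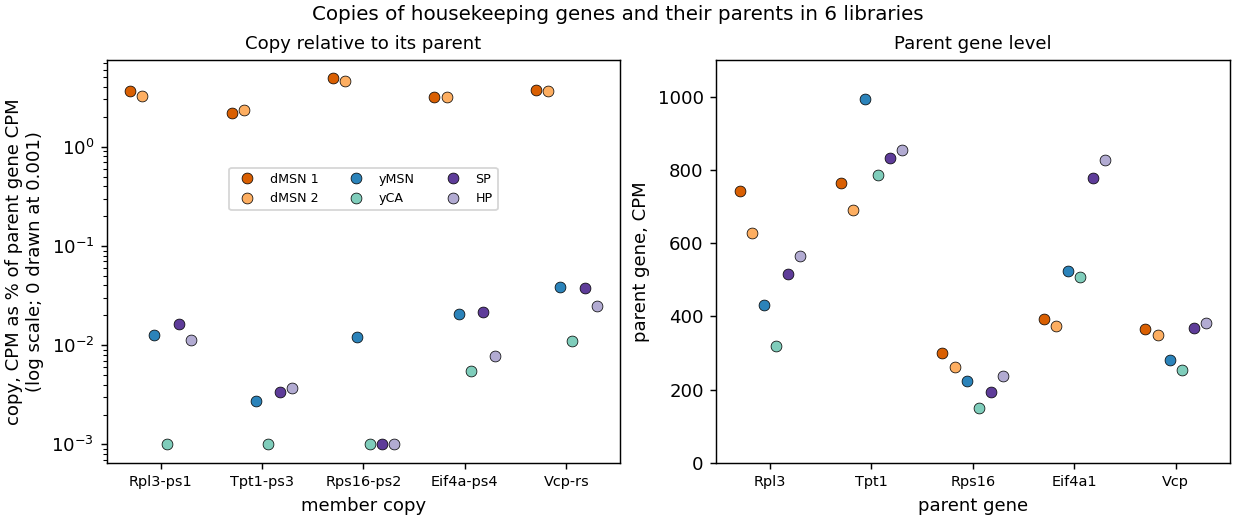
Left, each copy's CPM as a percentage of its parent gene's CPM (log scale, 0 drawn at 0.001) in the 6 RNA libraries. Right, the parent's CPM in the same libraries (linear scale). The 2 dMSN points lie between 2.19% and 4.90% on the left and all other points at or below 0.0385%. On the right the mean dMSN level is 0.580 to 1.496 times the mean of the other 4 libraries.

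Symbols of this kind were also counted beyond the members. Of 770 symbols with a -ps ending, 54 and 52 reached 1 CPM in the dMSN libraries, against 21 in yMSN, 19 in yCA, 21 in SP and 22 in HP. Of 163 such symbols named for ribosomal proteins, 27 and 27 did so in the dMSN libraries, against 2 in yMSN, 1 in yCA, 5 in SP and 4 in HP. Over all 34620 symbols, 41.2% and 41.25% reached 1 CPM in the dMSN libraries, against 44.67% in yMSN, 42.47% in yCA, 40.59% in SP and 40.07% in HP. Outside the members, 112 symbols with a -ps ending were tested in dMSN against yMSN by edgeR's quasi-likelihood test, and 53 were higher and 27 lower. The 49 ribosomal ones among them gave 34 higher and 3 lower, beside 32.1% higher and 35.4% lower over all genes tested. Reads that aligned to several places were 17.3% and 21.1% in the dMSN libraries, against 24.2% in yMSN, 22.4% in yCA, 26.1% in SP and 27.35% in HP. These alignments stand on a summary line of their own and are in no gene's count. The source of the reads counted for the copies was not tested.

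The rule asked for a level in both dMSN libraries and not for their ratio. Over the 9529 genes with at least 10 CPM in both, the median ratio of dMSN 2 to dMSN 1 was 1.003; 1.04% were at least 1.5-fold lower in dMSN 2 and 1.75% at least 1.5-fold higher. Of the 26 members, 7 were at least 1.5-fold lower in dMSN 2 and 1, Trbc2, was at least 1.5-fold higher. In all, 19 members were lower in dMSN 2, against 49.5% of the 9529 genes, and the members' median ratio was 0.899. Hcrt had the lowest ratio, 0.315 (95% counting interval 0.301 to 0.330), followed by Oxt with 0.323 (0.316 to 0.330). At least 3-fold lower in dMSN 2 were 3 of the 9529 genes (0.0315%), and Oxt and Hcrt are among them. Of the 9529 genes, 0.231% were at least 2-fold lower in dMSN 2. AC134325.1 had 0.481 and Agxt2l1 0.599. Trbc2 had the highest, 1.62 (1.52 to 1.73), before Egr4 with 1.32 (1.29 to 1.35), Myoc with 1.31 and Krt12 with 1.10. All 6 myelin members were lower in dMSN 2, with ratios among those described from 0.647 for Klk6 to 0.910 for Fa2h. The whole myelin list summed to 10840 CPM in dMSN 1 and 9194 CPM in dMSN 2, against 1829 CPM in yMSN, 1802 CPM in yCA, 1244 CPM in SP and 1172 CPM in HP. Its part in the lower ratios was not tested. With 1 library against 1 these differences have no test, and the intervals cover counting error only.

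Most other listed hypothalamic genes were, like Oxt and Hcrt, lower in dMSN 2. In a list of 18 further hypothalamic peptide genes and regulators, compiled with the data in view, 17 were lower in dMSN 2, with ratios from 0.325 to 1.03, Crh being the exception. Of the 9529 genes with at least 10 CPM in both dMSN libraries, 49.5% were lower in dMSN 2. Many of the 18 genes, such as Agrp and Sim1, were below 10 CPM there, so that share is not matched in level. The count is a description with no test. Avp, the vasopressin precursor and Oxt's neighbour in the genome, had 271 CPM in dMSN 1 and 108 CPM in dMSN 2, against 1.65 CPM in yMSN, 1.69 CPM in yCA, 0.0279 CPM in SP and none in HP. Pmch, the melanin-concentrating hormone precursor, had 55.0 and 23.6 CPM in the dMSN libraries, and Trh, the thyrotropin-releasing hormone precursor, 56.2 and 31.1 CPM. The summed level of the 18 genes was 554 CPM in dMSN 1 and 277 CPM in dMSN 2, against 81.6 CPM in yMSN, 59.9 CPM in yCA, 133 CPM in SP and 59.0 CPM in HP. Transcription factors in this list (Sim1, Otp, Nkx2-1 and Lhx1) had their highest level in SP. Sim1 had 0.663 and 0.240 CPM in the dMSN libraries against 18.5 CPM in SP and 6.91 CPM in HP. Otp had 1.81 and 0.961 CPM against 9.76 CPM in SP and 0.863 CPM in HP. No gene of the list other than Oxt and Hcrt met the rule, and the part of hypothalamic cells in the levels of Oxt and Hcrt was not tested.

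Listed immediate early genes were, like Egr4, higher in dMSN 2. All 11 others of a list compiled with the data in view were higher in dMSN 2, with ratios from 1.37 to 3.61. Of the 9529 genes with at least 10 CPM in both dMSN libraries, 4814 were higher in dMSN 2. Egr2 and Egr3 were below 10 CPM in dMSN 1, and the count of 11 is a description with no test. Egr1 had 248 CPM in dMSN 1 and 413 CPM in dMSN 2, against 18.9 CPM in yMSN, 12.1 CPM in yCA, 5.32 CPM in SP and 5.21 CPM in HP. Arc, a regulator of synaptic receptor traffic, had 222 and 322 CPM in the dMSN libraries, against 4.27 CPM in yMSN, 4.18 CPM in yCA, 2.40 CPM in SP and 2.08 CPM in HP. Over the list, the summed level of the 11 was 892 and 1401 CPM in the dMSN libraries, against 120 CPM in yMSN, 89.5 CPM in yCA, 81.1 CPM in SP and 98.8 CPM in HP. Slc17a7 also had more CPM in dMSN 2 than in dMSN 1, and Tbr1, a transcription factor of deep cortical layers, had 43.0 CPM in dMSN 1 and 87.4 CPM in dMSN 2. The whole list of 32 pallial projection neuron genes summed to 4169 CPM in dMSN 1 and 5574 CPM in dMSN 2, against 1561 CPM in yMSN, 2711 CPM in yCA, 403 CPM in SP and 504 CPM in HP. Their part in the Egr4 difference was not tested.

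**Figure D4:**
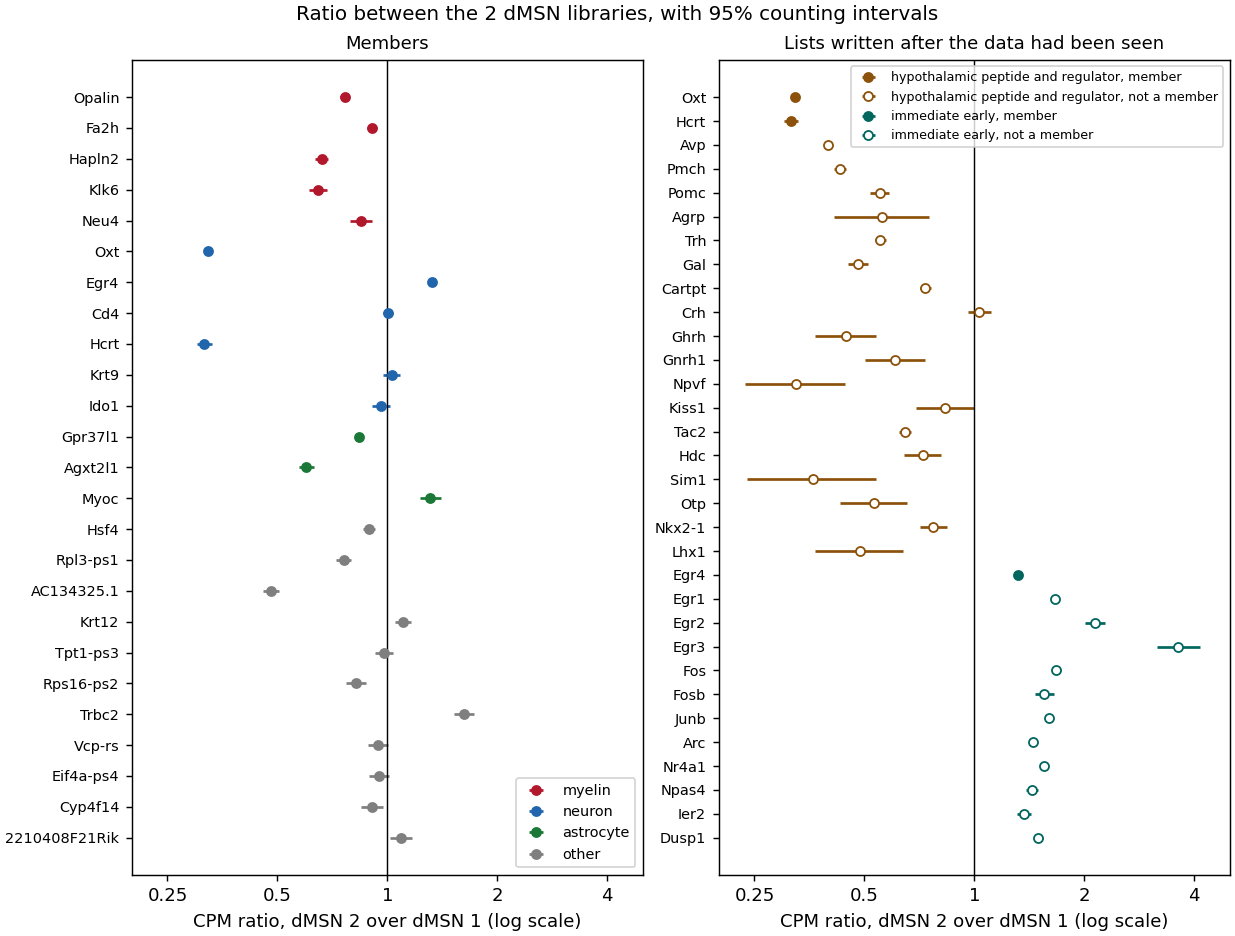
CPM ratio of dMSN 2 to dMSN 1 (log scale, vertical line at 1) with 95% counting intervals, for 25 of the 26 members on the left and for the hypothalamic and immediate early gene lists on the right (filled, member; open, not a member). Hypothalamic genes lie to the left of 1 except Crh at 1.03, and immediate early genes lie to the right, from 1.32 for Egr4 to 3.61 for Egr3.

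None of the genes beside the members in the genome met the rule. Its limits were met by 0.104% of all symbols, so a count of 0 is near that share. By the gene order of RefSeq's GRCm38.p6, used here for order alone, 18 protein-coding members have 36 flanking protein-coding genes, with 0 members among them. At least 10 CPM in both dMSN libraries was reached by 17 of them (47.2%), against 45.9% of 18465 protein-coding symbols. Kcnh4, a potassium channel beside Hcrt, had 28.6 and 24.2 CPM in the dMSN libraries, against 25.6 CPM in yMSN, 16.9 CPM in yCA, 7.16 CPM in SP and 3.996 CPM in HP. Bcan, the brain proteoglycan brevican beside Hapln2, had 365 and 312 CPM in the dMSN libraries, against 16.5 CPM in yMSN, 31.8 CPM in yCA, 1.25 CPM in SP and 0.703 CPM in HP. Dntt and Tll2, on either side of Opalin, stayed at or below 0.105 CPM in both dMSN libraries. Klk7 and Klk5, which flank Klk6, also stayed below 0.1 CPM there.

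The limits divide a continuous range. Just inside the upper limit were Egr4 and Hsf4, both with 0.487 CPM in yMSN, and Gpr37l1 with 0.452 CPM in yCA. Just outside it were Kcnk4, a potassium channel, with 0.541 CPM in yMSN, Rpl14-ps1 with 0.575 CPM in HP and Ntsr2 with 0.621 CPM in yCA. Just inside the lower limit were Neu4 with 10.03 CPM in dMSN 2, Cyp4f14 with 10.1 CPM in dMSN 2 and 2210408F21Rik with 10.1 CPM in dMSN 1. Outside it were Rpl38-ps2 with 8.87 CPM in dMSN 2 and the zinc finger gene Zfp831 with 8.09 CPM in dMSN 1.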

How the data were processed

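The 6 libraries hold polyA RNA, and the deposited values are the authors' raw read counts per gene symbol, 1 table a library, with 5 summary lines left out here. Tools listed in the submitters' processing notes are HTSeq, TopHat2 2.0.2, Bowtie 1.0.0, TopHat, edgeR, Bismark and methylKit, with the builds NCBIM37 and mm9 and no role for any of them. A strand setting is not given in the sources used here, so reads of overlapping genes on opposite strands could not be divided.

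CPM is a count over the summed gene counts of its library, scaled to 1000000 and not divided by length, so levels are compared within a gene only. The comparison of dMSN with yMSN used edgeR 4.0.16 in R 4.3.3 on all 6 libraries: TMM scaling, filterByExpr, 1 mean per cell group, and the quasi-likelihood F test, adjusted by Benjamini and Hochberg, with a threshold of 0.05. Its spread comes from the dMSN pair, with 1 residual degree of freedom, and its p-values assume that the unreplicated groups vary as that pair does. The members and the 10 lists were chosen with earlier results of these data known, and 4 further lists (hypothalamic, T cell, immediate early, keratin) were compiled with the data in view. Members were placed in a cell source by list first, otherwise by textbook knowledge. All members could be named, with up to 4 genes per list that passed, by size of change, and up to 4 that did not. The markers used to check the tissue label, the genes of the 4 later lists, the neighbours and the Xist, Ddx3y, Acta1 and Omp values are named besides. Ratios carry exact 95% binomial intervals. Alternatives were other limits, scalings and filters, DESeq2 1.42.0, other models and libraries left out. The fit was tested on simulated counts of 19192 genes, of which 200 were changed. It recovered 42% of them at 2-fold and 76% at 4-fold, with 2 and 9 false calls. A gene that did not pass may therefore still differ. Every simulated library had the same spread for a gene, which is what the fit assumes, and few genes were changed. The false calls therefore do not give the rate of false calls in the real fit. The values of 1 member and of a gene near a limit are not reported here. Of 26 members, 24 matched a current symbol in the RefSeq table and 1 a synonym.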

Additional observations from a re-analysis of the deposited data

How the results depend on the processing

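The number of members, 26, moved with the limits and with the libraries required to be low. It was 41 with an upper limit of 1 CPM, 42 with a lower limit of 5 CPM and 10 with a lower limit of 20 CPM, and 19 with an upper limit of 0.25 CPM. With TMM or RLE scaling it was 31. Leaving out dMSN 1 gave 28 and dMSN 2 gave 27. Leaving out yMSN gave 35, yCA 32, SP 26 and HP 28. Without both young libraries, an alternative chosen after seeing the data, it was 165, and without pseudogene, related-sequence and clone-named symbols, also chosen after seeing the data, 20. The members' median log2 ratio of dMSN 2 to dMSN 1 was -0.154, and -0.164 with TMM.

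For dMSN against yMSN, the 6162 genes higher and 6786 lower became 3239 to 3413 higher and 3370 to 3660 lower when 1 dMSN library was left out, under a model with lineage and stage. The listed non-members lower, 48 of 337 tested, became 20 to 23, while those higher, 247, became 184 to 189. DESeq2 called 4998 higher and 4886 lower. These fits have fewer samples or other terms, and the cause was not tested further. With the other 7 scalings, filters, models and tools, including DESeq2, none of these 4 counts moved by over 1.5 times. No paired analysis was possible because yMSN, yCA, SP and HP have 1 library each. Depth limits the other 4 libraries most, where members rest on 0 to 18 counts.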

Other observations

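Among the 10 symbols that met both limits and were left out by name, 9 start with Gm, of which 5 are annotated as pseudogenes. The levels of the 9 in dMSN were within the range of the members. Gm15487 had 75.9 CPM in dMSN 1 and 146 CPM in dMSN 2, against 0.0541 CPM in yMSN, 0.113 CPM in yCA, none in SP and 0.0959 CPM in HP. Gm10123, an annotated pseudogene, had 48.1 and 70.9 CPM in the dMSN libraries and 0.0320 CPM in HP, with no count in yMSN, yCA or SP. Gm7536, also an annotated pseudogene, had 21.1 and 19.7 CPM in the dMSN libraries and no count in the other 4, which among the members is true of Opalin alone. The symbol mmu-mir-2134-4 had 235 CPM in dMSN 1 and 722 CPM in dMSN 2, against 0.0271 CPM in yMSN, 0.0565 CPM in yCA, none in SP and 0.0639 CPM in HP. These are reads of a polyA gene library under a microRNA symbol, so they do not measure the mature microRNA.

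Neither the ependyma and choroid plexus list nor the interneuron list holds a member, beside 26 members among all 34620 symbols. Of 16 ependyma and choroid plexus genes, 6 were higher in dMSN than in yMSN, 5 were lower and 5 did not pass (median log2 change -0.01), near the shares of all genes tested. With lineage and stage as terms 3 were higher and 2 lower. In that model 2 were higher and 0 lower without dMSN 1, and 3 were higher and 1 lower without dMSN 2. In edgeR's test of dMSN against yMSN both Ttr and Kl passed. Ttr had 4314 and 3414 CPM in the dMSN libraries against 124 CPM in yMSN (log2 change 5.53, adjusted p = 4.87e-08), and Kl, the choroid plexus protein Klotho, had 23.7 and 24.5 CPM against 0.811 CPM (log2 change 5.46, adjusted p = 1.16e-07). Aqp1, a water channel, fell by 3.22 on the log2 scale (adjusted p = 1.19e-07). Pvalb, the calcium buffer of fast-spiking interneurons, had 192 and 129 CPM in the dMSN libraries against 0.243 CPM in yMSN, and missed the upper limit through yCA alone.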
